A study of Homo sapiens with 1 sample.

Results

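The human mitochondrial chromosome was examined gene by gene, without its rRNA genes, in the negative control of a PAR-CLIP experiment. Members were all genes that the count table places on the mitochondrial chromosome of T2T-CHM13 v1.1, except CHM13_G0057495 and CHM13_G0057497, which have the lengths and places of the 12S and 16S rRNA genes. This left 41 genes of the 63494 in the table, with 17 genes of 200 bases or more (16 on the plus and 1 on the minus strand), 24 genes under 100 bases (14 on the plus and 10 on the minus strand) and none in between. In PAR-CLIP, a nucleoside that carries sulphur is built into new RNA of living cells, and long-wave UV light then crosslinks that RNA to proteins in contact with it. The library came from HEK293T cells, a line of human embryonic kidney origin, that stably expressed the SFB empty vector, a tag of S-protein-binding, FLAG and streptavidin-binding parts fused to no protein. The cells were given 0.1 mM of 6-thioguanosine overnight and 0.4 J per square centimetre of light at 365 nm, and RNA was taken up on a streptavidin resin and then a FLAG resin. Only 1 library was analysed, so values carry a counting interval (95%, Wilson) and no replicate error, and conditions were not compared. The intervals cover counting error only and are too narrow, because PCR copies were not told apart by molecular identifiers and because a pair usually enters the featureCounts column as 2 reads. Marker genes of the cell line were not checked, since the tables pair no gene identifier with a name.

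Human mitochondrial DNA is a small circle that carries the RNAs of the mitochondrial ribosome, a set of tRNAs, and the mRNAs of subunits of the respiratory chain and of ATP synthase. Both of its strands are transcribed into long RNAs that span many genes, and the tRNAs that lie between the other genes are cut out by RNase P at their 5′ end and by ELAC2 at their 3′ end, which frees the mRNAs and rRNAs. Genes therefore touch or overlap, and opposite each gene lies RNA of the other strand.

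Names were taken from RefSeq (GRCh38.p14) by structure and not by identifier. With 1 common shift of the start along the circle, each of the 37 RefSeq mitochondrial genes (13 protein-coding, 22 tRNA and 2 rRNA genes) had a counterpart whose start and length were each within 1 base, and at any shift further away no more than 1 gene had one. In this way 38 of the 41 members carried 35 names, and 3 carried none. CHM13_G0057514 (minus strand, 89 bases) lies inside the gene of COX1, CHM13_G0057524 (plus strand, 547 bases) has the start of COX3 but ends earlier, and LOFF_G0002906 (minus strand, 74 bases) lies inside ND4L. The names COX2, ATP8 and ATP6 each fell on a pair of identifiers with the same start, end and strand. No sequence of these genes was used here.

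The 41 genes held 41455 of 8104708 gene reads, 0.511% (0.507% to 0.516%), and 2.24% of the reads on mitochondrial genes. With the 10 highest genes of the library left out of the total, the same reads made up 2.17%. The remaining 97.8% of mitochondrial reads lay on the rRNA genes, whose pooled density was 357 times that of the long members. The length of 7 long members for which no read could be counted is included in this ratio. Of the 41 members, 32 had at least 3 reads, where 33.5% of all genes in the table did. The other 9 had 0 reads, and the same 32 had at least 10 reads.

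All 9 genes with 0 reads were genes without a base of their own. COX2 (CHM13_G0057517 and CHM13_G0057518, from 7009 to 7692), which encodes a subunit of cytochrome c oxidase, ATP8 (CHM13_G0057520 and CHM13_G0057521, from 7789 to 7995) and ATP6 (CHM13_G0057522 and CHM13_G0057523, from 7950 to 8630), both subunits of ATP synthase, were each listed under 2 identifiers that cover each other. CHM13_G0057524, CHM13_G0057514 and LOFF_G0002906 lie wholly within another gene. As featureCounts was run by the authors, a read that touches more than 1 gene is given to none, so no read could be counted for these genes. Their 0 is a property of the annotation and sets no limit on their RNA, and ATP synthase mRNA could not be measured from these tables. COX3 (CHM13_G0057525, from 8630 to 9413), another subunit of cytochrome c oxidase, was counted over 237 of its 784 bases, and ND4L (CHM13_G0057529, from 9893 to 10189), a subunit of complex I, over 216 of its 297 bases.

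**Figure D1:**
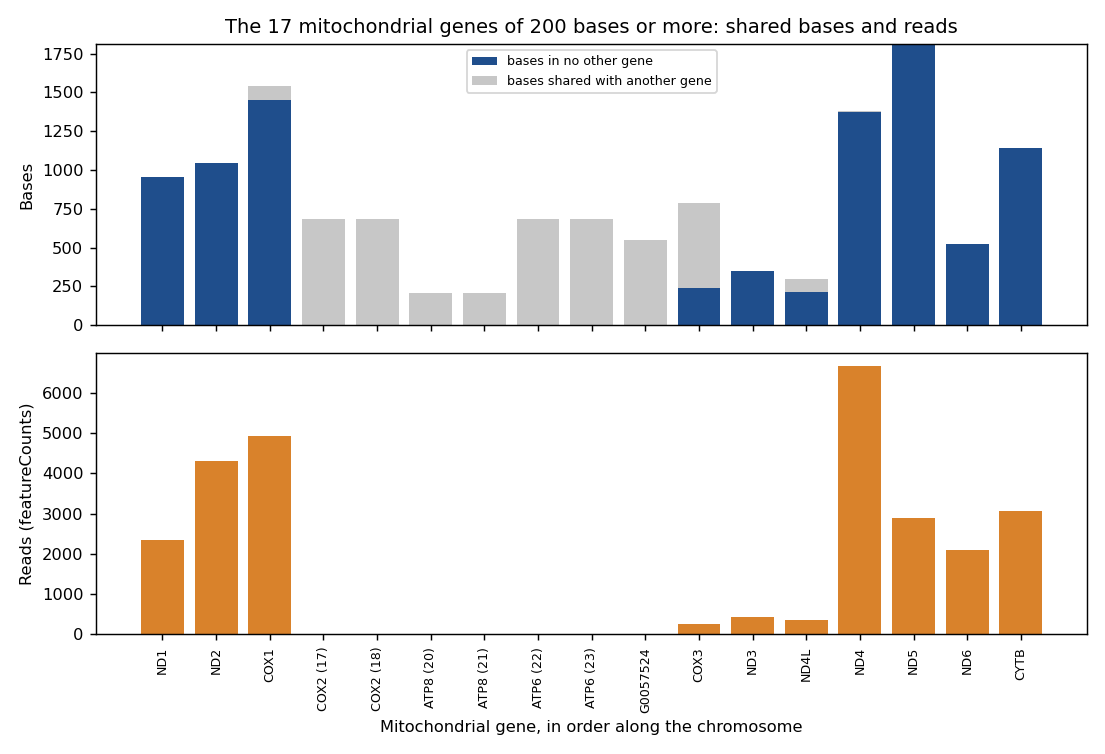
The 17 mitochondrial genes of 200 bases or more in order along the chromosome, with the bases of each gene (upper bars, blue where no other gene lies and grey where another gene lies) and its featureCounts reads (lower bars) in the 1 control library. The 7 genes without a blue part have 0 reads, and the numbers in brackets are the last digits of identifiers that share a name.

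Among the long genes, 10 had reads, together 27355 and 66.0% of all member reads. The complex I genes, whose products take electrons from NADH into the respiratory chain, held 19123 reads. ND4 (CHM13_G0057530, plus strand, from 10183 to 11560) had 6664 reads and the highest density of any long member, 4836 reads per kilobase of exon. ND2 (CHM13_G0057504, plus strand, from 3893 to 4934) followed with 4313 reads and 4139 per kilobase. ND6 (CHM13_G0057535, from 13572 to 14096), the only protein-coding gene on the minus strand, had 2100 reads and 4000 per kilobase. ND4 was 1.17 times ND2 by density (interval 1.12 to 1.21), whereas ND2 and ND6 were within counting error of each other, at a ratio of 1.03 (0.982 to 1.09). By read pairs from STAR without strand, ND4, ND2 and ND6 had 2371, 2065 and 1888 pairs per kilobase. With strand used, ND6 had 676 pairs more than the 991 counted without it, whereas ND4 and ND2 had no more. The place of ND6 in this order could change if reads that touch several genes were counted.

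The remaining complex I genes were lower. ND1 (CHM13_G0057499, from 2730 to 3685) had 2351 reads and 2459 per kilobase. ND5 (CHM13_G0057534, from 11760 to 13571), the longest member at 1812 bases, had 2894 reads and 1597 per kilobase. ND3 (CHM13_G0057527, from 9482 to 9827) had 437 reads and 1263 per kilobase, and ND4L had 364 reads and 1226 per kilobase, a pair whose ratio of 1.03 had an interval of 0.897 to 1.18. ND4 and ND5 are separated on the chromosome by 3 tRNA genes, and the density of ND4 was the higher one.

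COX1 (CHM13_G0057511, from 5327 to 6868), the catalytic subunit of cytochrome c oxidase, had 4923 reads and 3193 per kilobase. CYTB (CHM13_G0057537, from 14170 to 15310), the cytochrome b subunit of complex III, had 3063 reads and 2684 per kilobase. COX3 had 246 reads and 314 per kilobase, the lowest density of the 10 genes. Per kilobase of bases outside other genes, a measure chosen after the values were seen, COX3 had 1038, ND4L had 1685 and ND4 had 4861, while ND3 and ND5, which overlap no gene, stayed at 1263 and 1597. This measure does not make up for reads that also touch a neighbouring gene, which were counted for neither. Such reads are lost where genes only abut, too, as ND5 and ND6 do. The ratio of highest to lowest density among the 10 genes was thus 15.4 (13.6 to 17.5) by exon length and 4.68 by bases outside other genes. It was 3.28, from ND2 to ND3, in the 6 long genes that overlap no other gene. The order of the other neighbours by density (ND6 over COX1, COX1 over CYTB, CYTB over ND1, ND1 over ND5, ND5 over ND3 and ND4L over COX3) held against counting error by exon length, with ratios from 1.09 to 3.91. By bases outside other genes, ND4L over COX3 fell from 3.91 to 1.62, and ND4L was above ND3 and at 1.06 times ND5.

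The 22 tRNA genes were between 59 and 75 bases long and held 14100 reads, 34.0% of member reads, on far fewer bases than the long genes. All 22 had reads, from 44 in TRNC to 5724 in TRNS2, with a median of 355.5. TRNS2 (CHM13_G0057532, plus strand, from 11630 to 11688) encodes the serine tRNA for AGY codons, which is known for lacking the D arm, and its 59 bases held 40.6% of all tRNA reads. Its density of 97017 reads per kilobase was 20.1 times that of ND4. By reads per kilobase TRNS2 was at rank 10 of all genes of the library.

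TRNS2 lies in a row of 3 tRNA genes that touch each other between ND4 and ND5. TRNH (CHM13_G0057531, from 11561 to 11629), the histidine tRNA, had 1474 reads, and TRNL2 (CHM13_G0057533, from 11689 to 11759), the leucine tRNA for CUN codons, had 66. TRNS2 therefore had 3.88 times the reads of TRNH (3.67 to 4.11) and 86.7 times those of TRNL2 (68.1 to 110). Their lengths of 69, 59 and 71 bases differ far less than their reads.

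TRNV (CHM13_G0057496, from 1026 to 1094), the valine tRNA between the rRNA genes, had 1080 reads. TRNF (CHM13_G0057494, from 1 to 71), the phenylalanine tRNA on the other side of the 12S rRNA gene, had 163 reads, so that TRNV was at 6.63 times its level (5.62 to 7.81). TRNF begins at base 1 of the reference, where reads that run past its start cannot align in full. The effect on this ratio was not tested. TRNG (CHM13_G0057526, from 9414 to 9481), the glycine tRNA between COX3 and ND3, had 914 reads. TRNL1 (CHM13_G0057498, from 2653 to 2727), the leucine tRNA for UUR codons, which follows the 16S rRNA gene, had 605. TRNQ (CHM13_G0057502, minus strand, from 3752 to 3823), the glutamine tRNA, had 520 and was the highest on the minus strand. TRNS2, TRNH, TRNV, TRNG, TRNL1 and TRNQ, the 6 highest, held 73.2% of the tRNA reads, and the other 16 tRNA genes had between 44 and 499.

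**Figure D2:**
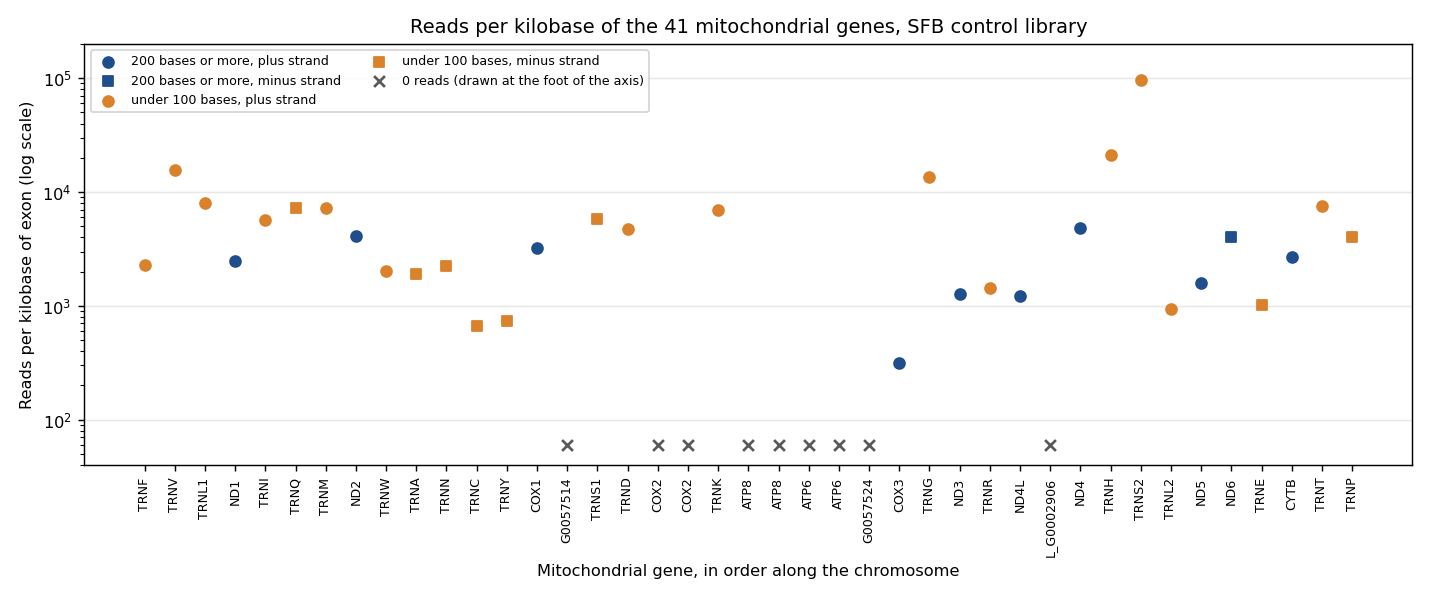
Reads per kilobase of exon (log scale) of the 41 members in order along the chromosome in the 1 control library, with circles for the plus and squares for the minus strand. TRNS2 stands at 97017, between TRNH at 21362 and TRNL2 at 930, and the 9 genes with 0 reads are crosses at the foot of the axis.

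By length class, the pooled density was 2024 reads per kilobase in the long and 8438 in the short members, and the long members were at 0.24 of the short ones. These values include the length of genes for which no read could be counted. Over genes with a read, the pooled density was 2785 in the 10 long genes and 9350 in the 22 tRNA genes. Of the 22 tRNA genes, 11 had a higher density than ND4 and 11 a lower one. By strand, the 14 tRNA genes of the plus strand had a pooled density of 13024 and the 8 of the minus strand 2987. Without TRNS2 the plus-strand value was 7499, which was 2.51 times the minus-strand value. The lowest tRNA genes, TRNC with 44 reads and TRNY with 49, are the cysteine and tyrosine tRNAs, lie on the minus strand and overlap each other by a base.

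For 7 of the 22 (TRNV, TRNI, TRNG, TRNR, TRNH, TRNS2 and TRNL2) a neighbouring gene begins at the next base or overlaps on either side, so a read counted for them has its whole aligned part within the tRNA gene. RNA that runs across the end of such a gene, as the uncut long RNA does, gives reads that touch 2 genes and were counted for neither. All 5724 reads of TRNS2 were thus aligned within 59 bases. These 7 genes had a pooled density of 20723 reads per kilobase, against 4200 in the other 15. Single densities ranged from 930 (TRNL2) to 97017 in the 7 and from 667 to 8067 in the 15. The split is not sharp, because some of the 15, such as TRNM and TRNL1, lie within 2 bases of a neighbour on either side. Without TRNS2 the 7 became 6 with a density of 9771, still 2.33 times that of the 15. How many reads across gene ends were lost was not tested, since the tables give reads on several genes only as a total over the genome.

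The STAR table of the control library counts each pair by strand, in a same-strand column where the first read lies on the strand of the gene and in an opposite-strand column where it lies on the other. For the tRNA genes of the plus strand, 91 pairs were in the same-strand and 6194 in the opposite-strand column, a same-strand share of 1.45% (1.18% to 1.77%). TRNS2 had 4 and 2855 pairs, TRNH 0 and 737, TRNV 0 and 540, TRNG 0 and 457, and TRNL1 0 and 303. The same-strand share was exactly 0 in 7 of these 14 genes and under 10% in 11, and it was highest in TRNL2 at 18.2% (8.61% to 34.4%), with 6 and 27 pairs. Among nuclear genes with at least 30 stranded pairs, which were not screened for overlap with other genes, 50.5% had a share under 10%.

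The long genes of the plus strand were mixed. They had 5056 pairs in the same-strand and 8784 in the opposite-strand column, 36.5% (35.7% to 37.3%), and the share was under 10% in 0 of the 9 genes with pairs. COX1 was lowest with 587 and 2644 pairs, 18.2% (16.9% to 19.5%). ND4 had 965 and 2302, 29.5% (28.0% to 31.1%). ND1 had 439 and 677 (39.3%), ND2 had 886 and 1266 (41.2%), and CYTB had 744 and 823 (47.5%). ND5 was highest with 1155 and 838, 58.0% (55.8% to 60.1%). ND3 with 107 and 82 pairs, COX3 with 57 and 49, and ND4L with 116 and 103 had intervals that included 50%.

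These shares include pairs that touch genes on both strands, which are ambiguous without strand but can enter a stranded column of each gene. The stranded pairs of ND5 exceeded its 1317 unstranded pairs by 676, and those of ND6, which touches it on the minus strand, exceeded its 991 by the same 676. Without these pairs, whose strand the table does not give, the ND5 share could lie anywhere from 36.4% to 87.7%. The excess was 1048 in COX1, whose share without it could be no more than 26.9%, 77 in ND4L and 53 in CYTB. It was 0 in ND1, ND2, COX3, ND3 and ND4, and over these 5 genes, chosen after the values were seen, 2454 pairs were in the same-strand and 4376 in the opposite-strand column, 35.9% (34.8% to 37.1%).

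Density and strand share were thus not in the same order. ND4 and COX1 had high densities and low same-strand shares, whereas ND3 and COX3 had low densities and shares of 56.6% and 53.8%. ND2 and COX1 had similar numbers of unstranded pairs, 2152 and 2183, and same-strand shares of 41.2% and 18.2%. ND6 on the minus strand, whose product is also a complex I subunit, had 674 and 993 pairs, 40.4% (38.1% to 42.8%), with the 676 pairs shared with ND5 among them.

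Set beside the long plus-strand genes, 1277 nuclear genes of 200 bases or more with as many stranded pairs (106 to 3267) had a median same-strand share of 6.09%, with quartiles of 1.83% and 62.8%. Of these nuclear genes, 59.4% had under 10% and 17.1% had over 90%. A share within the range of the 9 long plus-strand members, 18.2% to 58.0%, was seen in 108 of them, 8.46%. That range was set by the members themselves, so all 9 lie in it by construction. Its ends are COX1 and ND5, whose stranded pairs exceeded their unstranded pairs by 1048 and 676, and it could differ without those pairs. For nuclear genes under 100 bases, 49 had at least 30 stranded pairs, with a median share of 61.8% and 17 of them under 10%. The mitochondrial rRNA genes, also on the plus strand, had 96.1% of their pairs in the same-strand column. The paper names a stranded library kit (SMARTer, pico input) but does not state which read follows the strand of the RNA. Most of the 1277 longer nuclear genes leaned to the opposite-strand column. The short nuclear genes, by their median, and the mitochondrial rRNA genes leaned to the same-strand column. Which column holds the RNA of the gene itself was thus not settled for the mitochondrial genes, so the columns were not read as sense and antisense.

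**Figure D3:**
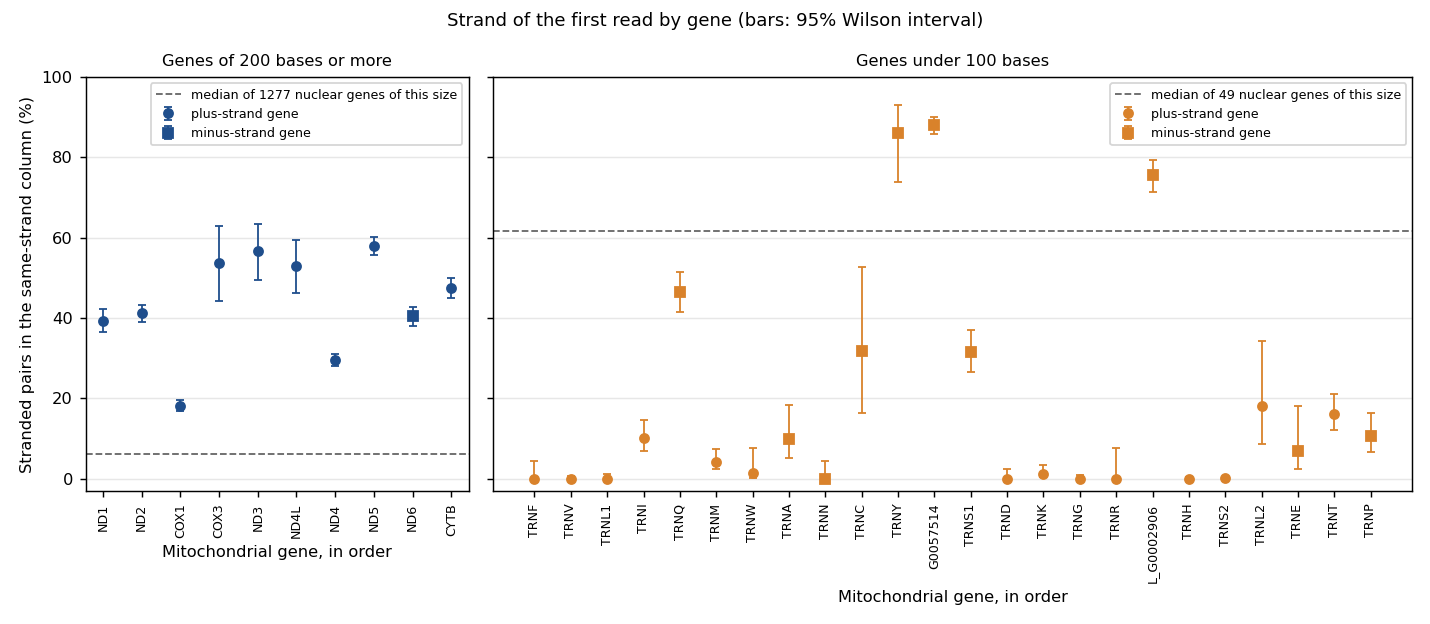
Percent of stranded STAR pairs in the same-strand column for each mitochondrial gene with such pairs in the 1 control library, with bars for 95% Wilson intervals and dashed lines for nuclear genes of the same size (medians 6.09% and 61.8%). The long genes lie between 18.2% (COX1) and 58.0% (ND5, pairs shared with ND6 included), and 7 plus-strand tRNA genes lie at 0.

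The minus-strand tRNA genes varied most, and their counts were small. TRNN, the asparagine tRNA, had 0 same-strand and 82 opposite-strand pairs, TRNA (alanine) had 8 and 73, TRNE (glutamate) had 3 and 41, and TRNP (proline) had 17 and 142. TRNS1, the serine tRNA for UCN codons, had 94 and 203 pairs, and TRNQ had 182 and 210. TRNC had 7 and 15 pairs, whereas TRNY had 43 and 7 and so a same-strand share of 86.0% (73.8% to 93.0%). The pooled share of these 8 genes was 31.4% (28.8% to 34.2%), and it was 18.4% in the 5 that overlap no other gene. Where a minus-strand tRNA gene lies between plus-strand genes, as TRNS1 does, those neighbours no longer take part in the count once strand is used. Pairs that run past its ends could then be counted for it. Stranded pairs exceeded unstranded ones by 132 in TRNQ, 97 in TRNS1, 26 in TRNY, 25 in TRNP, 15 in TRNA, 9 in TRNE, 1 in TRNC and 0 in TRNN. The strand of these extra pairs is not known. The shares above, such as that of TRNY with 50 stranded pairs, include them and are not shares of the gene's own pairs alone.

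The genes inside COX1 and ND4L had no unstranded pairs but did have stranded ones. CHM13_G0057514 had 760 same-strand and 102 opposite-strand pairs, and LOFF_G0002906 had 353 and 114. Both lie on the minus strand opposite a plus-strand gene, and a pair with its first read on the minus strand enters the same-strand column of the inner gene and may also enter the opposite-strand column of the outer one. COX1 had 3231 stranded pairs but 2183 without strand, 1048 more, which compares with the 862 stranded pairs of the gene inside it. For ND4L the values did not match in this way. LOFF_G0002906 had 467 stranded pairs, more than the 219 of ND4L, whose excess over unstranded pairs was 77. Most pairs of this inner gene were thus not in the columns of ND4L. Only 2 bases lie between LOFF_G0002906 and ND4, and whether its pairs also touched ND4 was not tested. The pairs of the inner genes cannot be told apart from those of the genes around them.

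In the whole library the members with reads had high densities. All 32 were within the highest 1% of genes by reads per kilobase, a class that held 1.00% of the table by its definition and began at 226 reads per kilobase. The 32 were taken for having reads, whereas only 33.5% of all genes in the table had at least 3. The share of nuclear genes of like size in this class was not computed. The 10 long genes were at ranks 96 to 500 and the tRNA genes at ranks 10 to 323. Nuclear genes of 200 bases or more with at least 3 reads numbered 20385, and their median was 5.49 reads per kilobase and their 99th percentile 271, below the 314 of COX3. Of 3084 nuclear genes under 100 bases, 191 (6.19%) had at least 3 reads. The median of those 191 was 164 reads per kilobase, and 1 had a higher density than TRNS2. These values describe a control pull-down of 1 library and have no test. Mitochondrial sequence also occurs as copies in nuclear DNA, and reads that aligned equally well to such a copy were not counted for any gene.

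**Figure D4:**
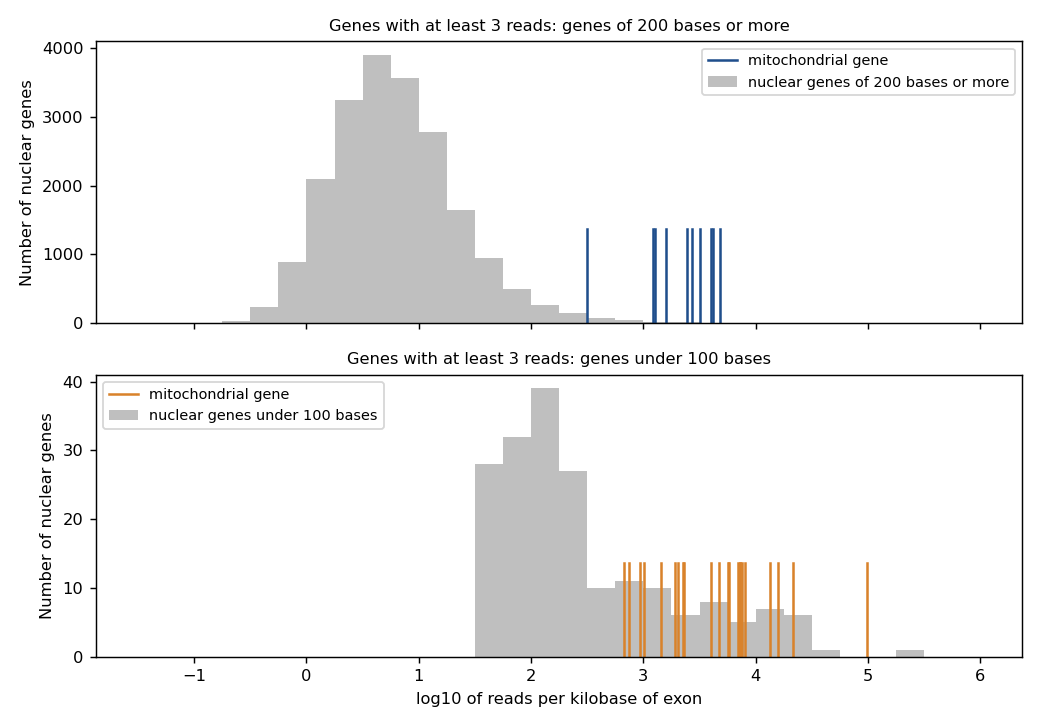
Number of nuclear genes with at least 3 reads (grey bars) by log10 of reads per kilobase of exon in the 1 control library, for genes of 200 bases or more (upper panel) and under 100 bases (lower panel), with each mitochondrial gene with reads as a coloured line. The 10 long mitochondrial genes lie between 314 and 4836 reads per kilobase, above the nuclear median of 5.49, and TRNS2 is the line furthest to the right.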

How the data were processed

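The authors aligned the cleaned reads to T2T-CHM13 v1.1 with STAR (2.7.6a in the submitters' processing notes). The deposited STAR table gives raw counts of pairs with 1 place in the genome, in 1 column that ignores strand and 2 that use it. The deposited featureCounts 2.0.2 table gives raw read counts per gene, and its header names exons as the counted feature, no strand setting and no option for reads on several genes. No count was normalized. The deposited rDNA bins were not used. The library held 8104708 gene reads and 4051714 pairs on genes.

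Reads per kilobase, shares with 95% Wilson intervals, overlaps between genes and RefSeq counterparts (start after 1 common shift, and length, each within 1 base) were computed with SciPy 1.17.1, pandas 2.3.3 and numpy 2.4.6 in Python 3.11.15, figures were drawn with matplotlib 3.10.9, and the code was tested on simulated data. Ratios of 2 genes carry the Wilson interval of the split of their summed reads. The highest-to-lowest ratio was taken over long genes with a read. All members of 200 bases or more were to be named, with the 6 tRNA genes with most reads and the genes with 0, and the other tRNA genes were named after their values were seen. The members and lists were chosen with earlier results of these data known. Alternatives were STAR pairs, other minimums, medians, and removal of the highest or overlapping genes.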

Additional observations from a re-analysis of the deposited data

How the results depend on the processing

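No paired analysis was possible because the only group had a lone sample. No value has a replicate error, so a change was read against the counting interval alone, and the cause was not tested where the construction of the alternative does not show it. The 32 members with at least 3 reads were also 32 at 1 read, at 10 reads and at 3 STAR pairs, and 34 with 3 pairs in either stranded column, a setting chosen after seeing the data.

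With STAR pairs, the share of gene reads was 0.494%, the long-to-short density 0.228 and the highest-to-lowest ratio of long members 17.5. Without the 10 highest genes in the total the share was 2.17%. The long-to-short density of 0.24 was 0.281 by medians, 0.328 without the highest gene of each class and, chosen after seeing the data, 0.32 per base outside other genes, so it stayed below 1. The highest-to-lowest ratio of 15.4 was 3.28 without overlapping genes and, chosen after seeing the data, 4.68 per base outside other genes.

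By medians over genes with at least 30 stranded pairs, the same-strand share was 47.5% in long plus-strand, 0.0700% in short plus-strand and 31.6% in short minus-strand members, against 36.5%, 1.45% and 59.7% pooled. Without the gene with most stranded pairs these were 38.7%, 2.54% and 44.4%, and without overlapping genes 47.5%, 1.11% and 18.4%. The last setting keeps genes that only abut another, so its values still include shared pairs. Among the genes kept are ND5 and TRNS1, whose stranded pairs exceeded their unstranded pairs by 676 and 97. Over the 5 long plus-strand genes with equal stranded and unstranded pairs, chosen after seeing the data, the same-strand share was 35.9%. The short minus-strand share therefore rested on the genes inside COX1 and ND4L. The long minus-strand share rests on ND6 alone, so removing the highest gene left none.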

Other observations

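Reads per gene were set against pairs per gene. In the 22 tRNA genes the reads were between 1.98 and 2.10 times the STAR pairs, and reads in excess of 2 times the pairs made up 0.0851% of their reads. In the long members this excess came to 1401 reads, 5.12% of their reads. The ratio was 2.00 in ND2, 2.02 in CYTB and 2.04 in ND4, whereas it was 2.20 in ND5, 2.26 in COX1, 2.31 in ND3, 2.32 in COX3 and 2.56 in ND4L. Reads exactly equal to 2 times the pairs were seen in 12 of the 32 members with pairs.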
